A study of Mus musculus with 4 samples.

Results

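The genes described here make prostaglandins, thromboxane and leukotrienes, and were chosen by name: Pla2g4a, Ptgs1, Ptgs2, Ptges, Tbxas1, Alox5, Alox5ap, Alox15, Lta4h and Hpgd. Of these 10 genes, 9 had a probe that the platform annotation assigns to exactly 1 gene, out of 19938 such genes in the table, and each of the 9 had 1 probe. Ptgs1 is not analysed here. The values are log2 expression values from Affymetrix arrays, made by the authors with RMA, which corrects background, normalises arrays together and summarises probes. The cells were thioglycolate-elicited peritoneal macrophages of wild-type C57BL/6 mice 8 to 12 weeks old, collected 3 days after injection of the irritant. All were kept for 6 h with BSA. The control received vehicle, while the other groups received 500 µM of a fatty acid: the saturated palmitic acid with 16 carbons, the monounsaturated oleic acid with 18, or the polyunsaturated linoleic acid, also with 18 carbons and with 2 double bonds. The control is labelled as BSA without fatty acid, and the treatment protocol gives its vehicle as ethanol with KOH. RNA of 3 samples was pooled per group and measured on 1 array, so the 4 arrays give 1 value per gene and group. No spread between samples can be had, so no test, error or interval of a difference was possible, and neighbours in any order of the 4 values below cannot be separated from one another.

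Eicosanoid synthesis starts when cytosolic phospholipase A2, encoded by Pla2g4a, cuts arachidonic acid out of membrane phospholipids. The cyclooxygenases encoded by Ptgs1 and Ptgs2 turn it into prostaglandin H2, from which terminal synthases make prostaglandin E2 (Ptges) or thromboxane A2 (Tbxas1), and Hpgd encodes the dehydrogenase that inactivates prostaglandins. In the other branch the 5-lipoxygenase (Alox5), presented with its substrate by a helper protein (Alox5ap), makes leukotriene A4, which the hydrolase of Lta4h converts to leukotriene B4. Alox15 encodes a further lipoxygenase, known in the mouse peritoneum from resident macrophages. Linoleic acid is a dietary precursor of arachidonic acid, and Ptgs2 is a well-known inducible gene of activated macrophages.

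All 9 measured genes lay within 1.5-fold of the control with each of the fatty acids. With palmitic acid, 0 of 9 were at least 1.5-fold higher and 0 lower, where 2.17% of the 11174 genes kept by brightness were higher and 1.41% lower. Kept genes were those with at least 1 of the 4 values at or above the median of the whole table, log2 7.09, a level that says how bright a probe was but not whether its transcript was detected. Of the 9 genes 7 were kept, while Alox5 and Hpgd stayed below that level on every array. With oleic acid the counts were likewise 0 and 0, beside 0.376% and 0.34% of kept genes, and with linoleic acid 0 and 0, beside 0.0358% and 0.0358%. With such backgrounds 0 of 9 is near the share of all genes and is no result about these genes. In whole cultures, fewer cells of a type and less RNA per cell cannot be told apart.

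At a lower threshold of 1.2-fold, 1 of the 9 genes was higher with palmitic acid, Lta4h, and 0 were lower, beside 12.1% and 8.72% of kept genes. After a repeated quantile normalisation the count turned to 0 higher and 1 lower, with Lta4h at 0.21 and Pla2g4a at -0.26. With oleic acid 0 were higher and 0 lower by 1.2-fold (4.02% and 2.53% of kept genes), and with linoleic acid 0 and 0 (3.23% and 1.09%). Across the 9 genes the median log2 difference from the control was -0.083 for the palmitic, -0.024 for the oleic and -0.012 for the linoleic acid array. Without the dim Alox5 and Hpgd, the 7 kept genes had medians of -0.069, 0.049 and 0.064, so that the sign for oleic and linoleic acid turns with these 2 genes. Over all kept genes these medians were 0.00059, 0.015 and 0.042. The comparisons with the control all subtract the same array.

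**Figure D1:**
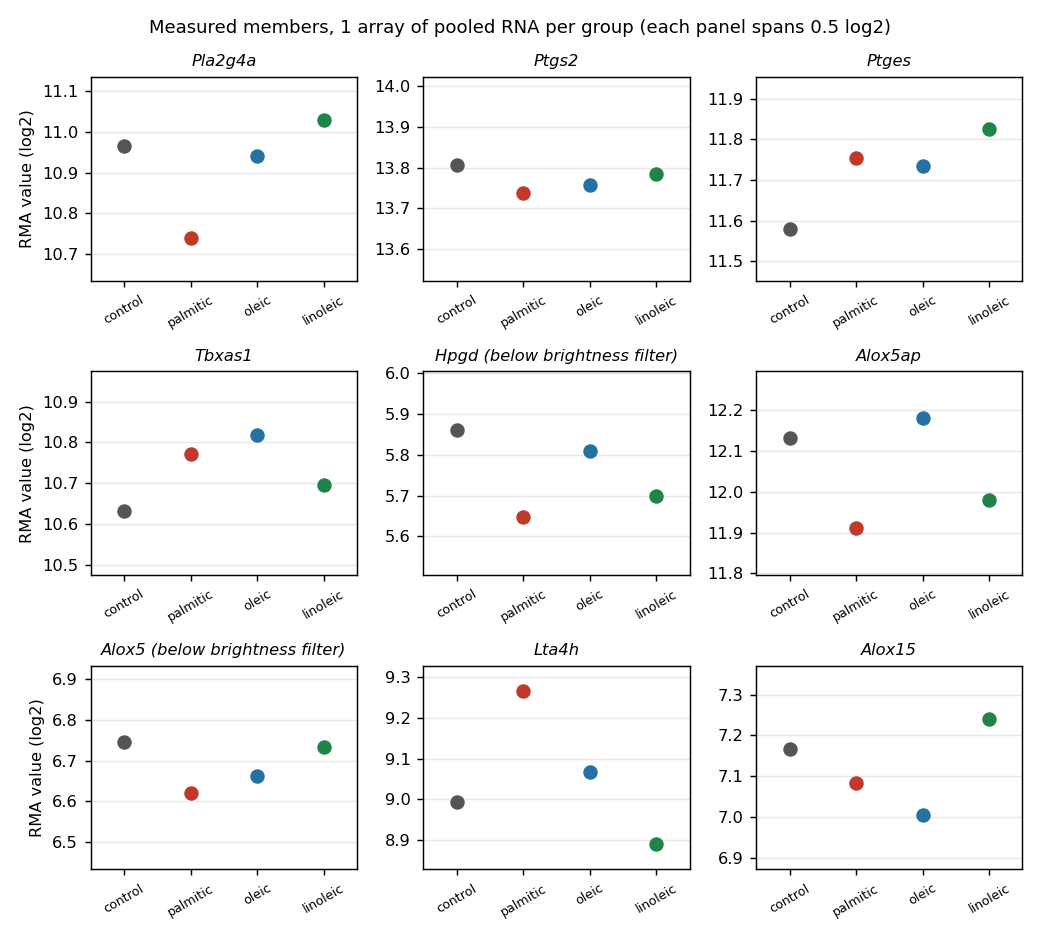
RMA value (log2) of each measured gene in the control, palmitic, oleic and linoleic acid arrays, 1 point per array, with each panel spanning 0.5 log2. Ptges and Tbxas1 have their lowest value in the control. Pla2g4a, Ptgs2, Alox5, Alox5ap and Hpgd have their lowest with palmitic acid, and Lta4h its highest with palmitic acid.

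Of the prostaglandin genes, Ptges and Tbxas1 were the members with a higher value than the control in every fatty acid array. Their proximal promoters are printed beside that of Ptgs2, the gene of the enzyme that supplies both synthases, as the 250 bases before the RefSeq start in build GRCm38.p6. They lie on chromosome 2 from 30903298 to 30903547 on the minus strand (Ptges), chromosome 6 from 38918736 to 38918985 on the plus strand (Tbxas1) and chromosome 1 from 150099781 to 150100030 on the plus strand (Ptgs2). Capitals mark matches to the motifs searched.
Ptgs2: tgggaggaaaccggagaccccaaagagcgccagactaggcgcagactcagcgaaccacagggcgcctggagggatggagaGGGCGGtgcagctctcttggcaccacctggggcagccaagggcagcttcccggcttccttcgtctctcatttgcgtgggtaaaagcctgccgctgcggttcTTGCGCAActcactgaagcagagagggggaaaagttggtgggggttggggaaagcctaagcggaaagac
Ptges: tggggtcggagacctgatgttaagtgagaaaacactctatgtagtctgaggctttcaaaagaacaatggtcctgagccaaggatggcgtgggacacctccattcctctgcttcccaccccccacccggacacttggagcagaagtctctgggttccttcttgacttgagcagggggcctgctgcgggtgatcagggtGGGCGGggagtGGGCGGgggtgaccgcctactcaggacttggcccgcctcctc
Tbxas1: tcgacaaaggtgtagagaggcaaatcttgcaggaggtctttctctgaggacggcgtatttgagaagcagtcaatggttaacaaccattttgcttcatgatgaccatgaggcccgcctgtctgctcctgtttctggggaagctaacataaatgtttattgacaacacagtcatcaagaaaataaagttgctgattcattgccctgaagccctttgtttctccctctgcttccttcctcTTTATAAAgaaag

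The motifs were searched on both strands in the same window of 32851 RefSeq promoters. Ptgs2 held 1 match to the palindromic C/EBP motif TTGCGCAA, 69 bases before the start, which 0.164% of promoters hold, and 1 GC box (GGGCGG, in 32.7% of promoters). Ptges held 2 GC boxes, 53 and 42 bases before its start. Tbxas1 held overlapping matches to TATAAA, 1 on each strand and 13 and 11 bases before the start, a motif found in 12.4% of promoters. The E-box CACGTG (6.02% of promoters) and TGACGT (6.47%) matched in none of these 3 windows. The windows stop at the RefSeq start and bases past it were not searched, so this does not show that a promoter lacks these motifs. Of the 10 genes, 8 had a promoter entry. These matches describe the letters of each window and not sites that a factor uses in these cells.

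Pla2g4a had a value of log2 10.97 in the control, 10.74 with palmitic, 10.94 with oleic and 11.03 with linoleic acid. The palmitic acid array was the lowest and the others lay close to one another. Its difference from the control was -0.23 with palmitic acid, and 27.1% of kept genes differed by at least as much in either direction. The oleic (-0.024) and linoleic acid (0.064) differences were smaller, and 82.4% and 59.4% of kept genes differed by as much or more.

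Ptgs2, which encodes the inducible cyclooxygenase, had values of 13.81 in the control, 13.74 with palmitic, 13.76 with oleic and 13.78 with linoleic acid. The 4 arrays lay within 0.069 of each other, the narrowest range of the 9 genes. The highest value of any probe on the 4 arrays was 14.4, and genes as bright as Ptgs2 differed little in general. The 83 genes within 0.5 log2 of its mean had a median absolute difference of 0.045 between palmitic acid and control, against 0.131 over all kept genes. The value of Ptgs2 was 0.069 below the control with palmitic acid, and 24.1% of those 83 genes differed by as much or more, so a narrow range at this brightness does not show an unchanged transcript level. The sign of the difference was not stable for linoleic acid, at -0.023 as deposited and 0.0025 after a repeated quantile normalisation.

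Ptges, the gene of the inducible prostaglandin E2 synthase, had values of 11.58 in the control, 11.75 with palmitic, 11.73 with oleic and 11.82 with linoleic acid. The control was the lowest of the 4 and the linoleic acid array the highest. The difference with linoleic acid was 0.24, a ratio of 1.18, and 2.77% of the 829 genes within 0.5 log2 of its mean differed by as much or more in that comparison, as did 5.83% of all kept genes. For palmitic acid, with a difference of 0.17, these shares were 36.7% and 38.0%, and for oleic acid, with 0.15, they were 19.3% and 22.1%. Each of these differences subtracts the same control value, which was the low one.

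Tbxas1, which encodes thromboxane synthase, had values of 10.63 in the control, 10.77 with palmitic, 10.82 with oleic and 10.70 with linoleic acid. The control was again the lowest array, and oleic acid the highest, by 0.19. That difference was matched or exceeded by 14.9% of kept genes, the palmitic acid difference of 0.14 by 47.0% and the linoleic acid difference of 0.065 by 58.6%. Hpgd, at 5.86 in the control, 5.65 with palmitic, 5.81 with oleic and 5.70 with linoleic acid, was dim on every array. Its control value was the highest, by 0.21 over palmitic acid, but with values under log2 7.09 set to that level its differences were 0.

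In the leukotriene branch Alox5ap, the gene of the helper protein, had values of 12.13 in the control, 11.91 with palmitic, 12.18 with oleic and 11.98 with linoleic acid. Control and oleic acid formed the higher values, and palmitic and linoleic acid the lower ones. The palmitic acid array differed from the control by -0.22, the oleic acid array by 0.049 and the linoleic acid array by -0.15, and of the 660 genes within 0.5 log2 of its mean 22.9%, 59.2% and 13.0% differed by as much or more. Of all kept genes these shares were 27.5%, 66.7% and 21.7%. Alox5 itself was dim, at 6.75 in the control, 6.62 with palmitic, 6.66 with oleic and 6.73 with linoleic acid, and its probe therefore says little about the lipoxygenase.

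Lta4h, the gene of leukotriene A4 hydrolase, had the widest range of the 9, 0.38 log2. Its values were 8.99 in the control, 9.27 with palmitic, 9.07 with oleic and 8.89 with linoleic acid. Palmitic acid was the highest array and linoleic acid the lowest, on either side of the control. The palmitic acid difference of 0.27 is a ratio of 1.21, and 19.8% of kept genes differed by as much or more. After a repeated quantile normalisation the difference was 0.21, below 1.2-fold.

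Alox15 had values of 7.17 in the control, 7.08 with palmitic, 7.004 with oleic and 7.24 with linoleic acid, all near the brightness level of the filter. Oleic acid was the lowest and linoleic acid the highest. Markers of resident large peritoneal macrophages, the cells known for this gene, passed the brightness filter in part, which does not tell whether the cells were present. Of 11 listed 10 were measured and 8 kept, among them the transcription factor gene Gata6 at 8.85 in the control. Timd4 (7.01 in the control) and Lrg1 (7.11) were kept but lay near the filter level, and F5 and Garnl3 were below log2 7.09 on every array. The mean log2 value of the 10 ranged from 8.15 with palmitic acid to 8.26 with linoleic acid. The part of these cells in the Alox15 values was not tested.

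**Figure D2:**
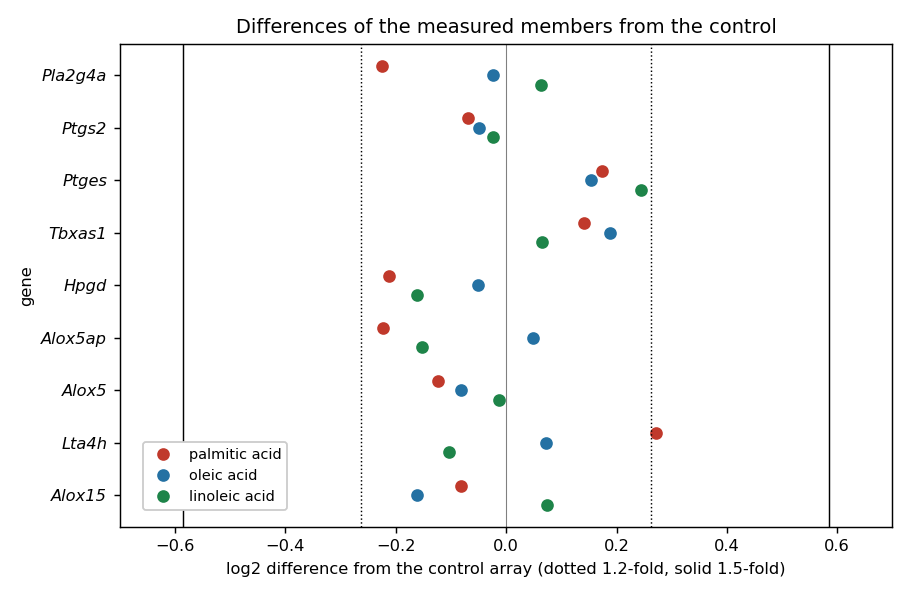
Log2 difference from the control array for each measured gene with palmitic, oleic and linoleic acid, 1 point per array pair, with dotted lines at 1.2-fold and solid lines at 1.5-fold. No point reaches 1.5-fold, and only Lta4h with palmitic acid (0.27) passes 1.2-fold.

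The fatty acids, given at equal concentration for equal time, were next set against each other in 3 pairs. Palmitic and oleic acid differ in chain length and by 1 double bond, and linoleic acid is oleic acid with 1 double bond more. In none of the pairs did a measured member reach 1.5-fold. Between palmitic and oleic acid 0 of 9 were higher and 0 lower, beside 1.82% and 1.66% of kept genes, and between palmitic and linoleic acid 0 and 0, beside 1.58% and 2.01%. Between linoleic and oleic acid the counts were 0 and 0, beside 0.707% and 0.34%. Without replicates there is no interval of any of these differences, so they do not show that the fatty acids act alike on these genes.

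At 1.2-fold, Alox5ap was lower with palmitic than with oleic acid (log2 difference -0.27), as 1 of 9 genes, with 0 higher (11.4% of kept genes lower, 13% higher). Against linoleic acid, Lta4h was higher with palmitic acid by 0.38, a ratio of 1.30, the widest difference of any member in the 6 comparisons, and Pla2g4a lay at -0.29. These were 1 of 9 genes higher and 1 lower, beside 8.41% and 10.8% of kept genes. The Pla2g4a difference fell short of 1.2-fold, at -0.25, with each array centred on its median. Between linoleic and oleic acid 0 were higher and 0 lower by 1.2-fold (7.14% and 4.16% of kept genes). The widest differences there were Alox15, higher with linoleic acid by 0.24, and Alox5ap, at -0.20. Of the 4003 genes within 0.5 log2 of the mean of Alox15, 8.64% differed by as much or more in that pair, and of all kept genes 14.5%. The oleic acid value of Alox15 lay under log2 7.09. With such values set to that level, its oleic acid difference from the control went from -0.16 to -0.075, so the difference from linoleic acid narrows too. Medians over the 9 genes were -0.041 for palmitic minus oleic acid, -0.071 for palmitic minus linoleic acid and 0.027 for linoleic minus oleic acid. Without the dim Alox5 and Hpgd, the 7 kept genes had medians of -0.019, -0.071 and 0.027, beside -0.019, -0.031 and 0.018 over all kept genes.

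Among all kept genes, those whose 3 differences from the control were nearest to a member's were looked up for the members with the widest range. The nearest to Lta4h were Rbis, Arhgap5 and Ccdc59, at distances of 0.044, 0.044 and 0.048 log2. Pla2g4a had Il1rl2 (0.013), Tacc1 (0.017) and Entpd7 (0.019), and Alox5ap had Gng10 (0.0091), Dpm3 (0.016) and Mea1 (0.024). These distances rest on 4 arrays, and 50 genes lay within 0.1 of Lta4h, 333 of Pla2g4a and 208 of Alox5ap, so such patterns are common.

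The other genes of the pathway were taken from 6 lists by role with 86 symbols, of which 78 were measured and 54 kept. These lists were chosen with earlier results of these data known. With palmitic acid 1 of the 54 was higher by 1.5-fold or more and 4 were lower, beside 2.17% and 1.41% of all kept genes. The oleic acid array had 1 higher and 0 lower, beside 0.376% and 0.34%, and the linoleic acid array 0 and 0, beside 0.0358% each way. Of the 24 measured genes below the brightness level, 0 passed 1.5-fold in these comparisons. The 3 largest of these differences with palmitic acid were in receptor genes.

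Of 17 measured receptor genes 9 were kept. Of these, 3 were lower by 1.5-fold or more with palmitic acid, beside 1.41% of all kept genes. The list was chosen with earlier results of these data known, so that share is no independent yardstick and no enrichment can be read. Ptger4, which encodes the EP4 receptor for prostaglandin E2, had values of 8.92 in the control, 7.76 with palmitic, 8.78 with oleic and 9.07 with linoleic acid. Palmitic acid lay well below the others, with a difference of -1.16 from the control. Cysltr1, a receptor for cysteinyl leukotrienes, had values of 8.87, 8.09, 9.04 and 9.004 in the same order of arrays. It too was low with palmitic acid alone, at -0.79 from the control. Gpr31b, a mouse counterpart of a human receptor for hydroxylated arachidonic acid, had values of 9.75, 8.81, 9.54 and 10.08. Palmitic acid was the lowest (-0.94 from the control) and linoleic acid the highest (0.34).

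Set against the other fatty acids, these receptor genes were again lower by 1.5-fold or more in the palmitic acid array. Ptger4 lay at -1.02 against oleic acid and -1.31 against linoleic acid. Cysltr1 lay at -0.95 and -0.92, and Gpr31b at -0.73 and -1.27. These comparisons share the palmitic acid array with the one against the control. Gpr132, a receptor reported to respond to oxidised fatty acids, lay at -0.51 with palmitic acid against the control, under 1.5-fold. Palmitic acid lay at -0.52 against oleic acid for this gene. Against linoleic acid it lay at -0.5842, just short of 1.5-fold (0.5850). The other kept receptor genes included, for palmitic acid against the control, the prostacyclin receptor Ptgir (0.21), the thromboxane receptor Tbxa2r (-0.14) and Cmklr1 (-0.20). The 9 kept receptor genes had a median of -0.20 in the palmitic, 0.013 in the oleic and 0.072 in the linoleic acid comparison, beside the all-gene medians given above. The leukotriene B4 receptor Ltb4r1 and the prostaglandin receptor Ptger2 were among the 8 receptor genes below the brightness level.

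**Figure D3:**
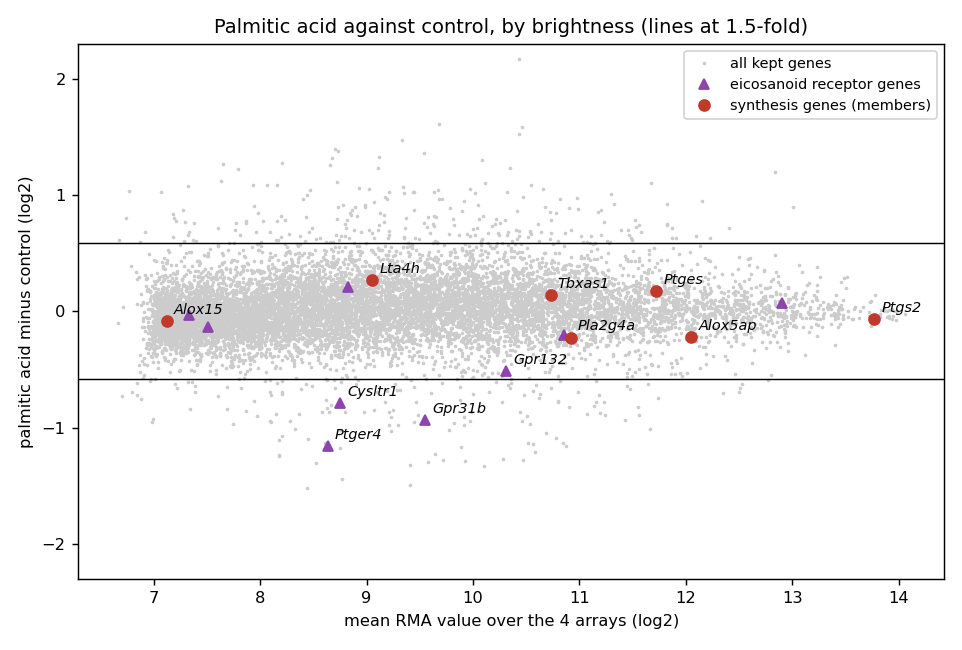
Log2 difference between the palmitic acid and control arrays against the mean RMA value over 4 arrays, for all 11174 kept genes (grey), the 7 kept members (circles) and the 9 kept receptor genes (triangles), with lines at 1.5-fold. The members lie between -0.23 and 0.27, while Ptger4, Gpr31b and Cysltr1 lie below the lower line.

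Markers of other cell types were read beside these palmitic acid differences. All 10 measured macrophage markers were kept, with a mean log2 value between 12.54 (palmitic acid) and 12.74 (oleic acid) and Adgre1, the gene of F4/80, at 12.98 in the control. The Fc receptor gene Fcgr1 had differences of -0.66 (palmitic acid) and 0.65 (oleic acid), both beyond 1.5-fold, and Mertk, which encodes a receptor for the uptake of dying cells, at 0.51 with palmitic acid. Of 12 mesothelial and fibroblast markers 10 were lower with palmitic acid, beside 49.9% of all kept genes. The widest were Pdgfrb at -1.29 and Pdgfra at -0.86, while Col1a1, Col1a2, Dcn and Col3a1 lay between -0.15 and -0.28. Krt19 and Lum, both dim, were higher with palmitic acid. With oleic acid 6 of the 12 were lower, Pdgfrb at -0.71, beyond 1.5-fold, and Pdgfra at -0.060. The mean of the list was 7.71 with palmitic acid against 7.95 to 8.07 on the other arrays. The mesothelial genes Upk3b, Krt19 and Lrrn4 were below log2 7.09 on every array, while Wt1 (-0.26 with palmitic acid) and Msln (-0.15) were kept. Among 9 mast cell and basophil markers 7 were below that level on every array, and the mean ranged from 5.91 with palmitic acid to 6.21 with linoleic acid, with a median difference of -0.033 with palmitic acid. The kept genes of this list were Hdc (-1.27 with palmitic acid) and Kit (-0.45). With oleic acid they lay at -0.084 and -0.46. Of 9 neutrophil markers 6 were below log2 7.09 on every array, Ly6g among them, with means of 6.95 to 7.06. The 3 kept were Csf3r, Mmp8 and S100a8, at 11.29, 9.43 and 8.13 in the control. With palmitic acid they lay at -0.22, -0.19 and -0.20. In that comparison 8 of the 9 were lower, beside 49.9% of all kept genes, and the dim Cxcr2 was higher (0.59). That share is over kept genes, while the neutrophil and the mesothelial and fibroblast lists also hold dim ones. Without the filter the median difference over all genes was -0.017. Lower with palmitic acid were also 7 of 10 macrophage, 6 of 9 mast cell and basophil, 5 of 6 platelet and 4 of 6 eosinophil markers. For resident macrophages this was 5 of 10, for T and NK cells 3 of 8 and for B cells 1 of 5. Eosinophil (5 of 6), platelet (3 of 6), B cell (4 of 5) and T and NK cell (7 of 8) markers were below log2 7.09 in the proportions given, with means between 5.82 and 7.03. The part of such cells in the receptor and member values was not tested.

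Of 19 kept genes that release or reincorporate arachidonic acid, 1 was higher by 1.5-fold or more with palmitic acid and 0 were lower, where 2.17% and 1.41% of all kept genes were, so that this count is no result about the list. It was Mgll, which encodes monoacylglycerol lipase, with values of 8.58 in the control, 9.33 with palmitic, 8.65 with oleic and 8.62 with linoleic acid. Palmitic acid stood above the others by 0.68 or more. Lpcat2, the gene of an acyltransferase that also makes platelet activating factor, lay at -0.43 with palmitic acid, and Napepld, which encodes an enzyme of acylethanolamide synthesis, at -0.39. Pla2g15, which encodes a lysosomal phospholipase, was higher with oleic acid by 0.47 and with palmitic acid by 0.29, and Abhd6, a second monoacylglycerol lipase gene, lay at 0.23 with oleic acid. With oleic and linoleic acid 0 of the 19 passed 1.5-fold.

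The remaining synthases stayed within 1.5-fold in all 6 comparisons. At most 2.17% of all kept genes were higher and 2.01% lower in any of these, so this is no result about the synthases. Of 6 kept prostanoid synthase genes, Hpgds, which encodes the hematopoietic prostaglandin D2 synthase, had the widest range. Its values were 9.22 in the control, 9.65 with palmitic, 9.12 with oleic and 9.32 with linoleic acid, so that it was highest with palmitic acid, by 0.44 over the control. Ptges2 (-0.13) and Ptges3 (0.042), the other prostaglandin E synthase genes, lay close to the control with palmitic acid. Of 6 kept lipoxygenase and leukotriene enzyme genes, Dpep2, which encodes a dipeptidase of cysteinyl leukotriene turnover, was higher with linoleic acid by 0.32. Mgst3 (-0.25), Gpx4 (-0.20) and Cotl1 (-0.12), the last encoding a protein that binds 5-lipoxygenase, were lower with palmitic acid by less than 1.2-fold. The median of this list with palmitic acid was -0.18.

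Of 9 kept genes of prostaglandin reduction, epoxide hydrolysis and P450 oxidation, Cyp1b1 passed 1.5-fold. Its values were 8.83 in the control, 8.20 with palmitic, 9.43 with oleic and 9.13 with linoleic acid. Palmitic acid lay below the control (-0.63) and oleic acid above it (0.60). In these directions 1.41% of all kept genes passed 1.5-fold with palmitic acid and 0.376% with oleic acid. Zadh2, the gene of a prostaglandin reductase, lay at -0.28 with oleic acid, and Ptgr1 within 0.13 of the control on every array. Among 5 kept transporter genes 0 passed 1.5-fold, which is again near the share of all kept genes. Abcc1, which encodes the exporter of leukotriene C4, was higher with palmitic acid by 0.29, and Slco2a1, which encodes the prostaglandin transporter, lay at -0.31. Mfsd2a (-0.39) was lower and Slco2b1 (0.35) higher with oleic acid.

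**Figure D4:**
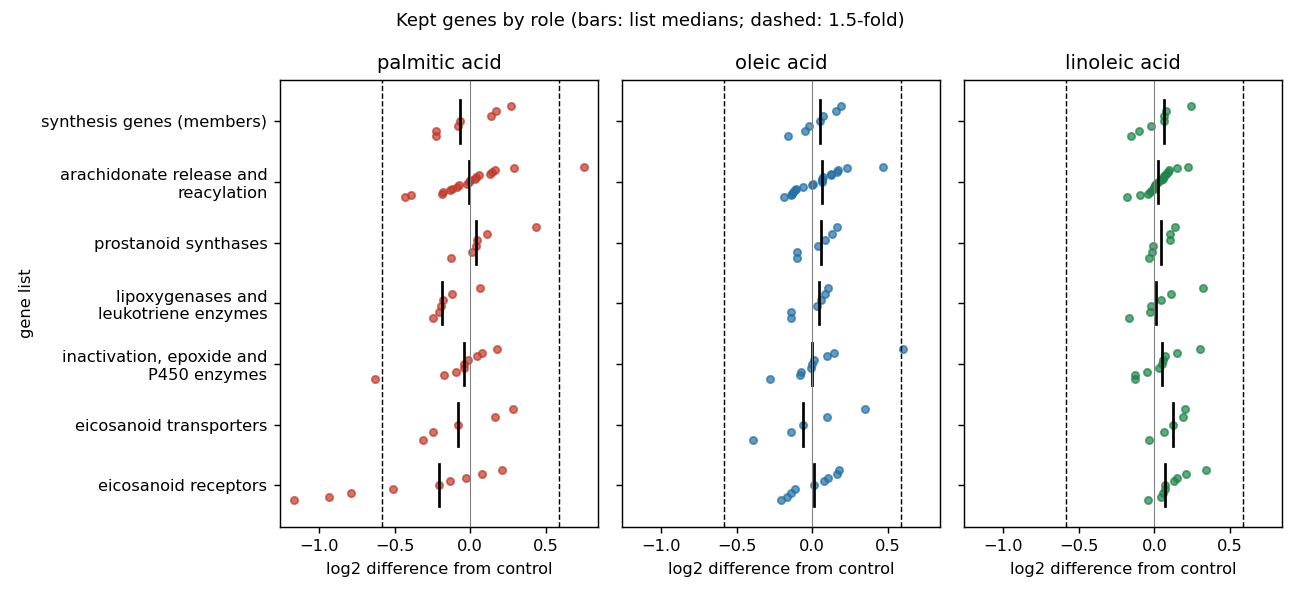
Log2 difference from the control for the kept genes of each list by role, 1 panel per fatty acid, with points for genes, bars for list medians and dashed lines at 1.5-fold. Points beyond 1.5-fold are 3 receptor genes, Cyp1b1 and Mgll with palmitic acid and Cyp1b1 with oleic acid, and none with linoleic acid.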

How the data were processed

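The log2 values were deposited by the authors as 1 table of 35556 probes, made with RMA per the submitters' processing notes; for its version, summary level and genome build, the sources used here give nothing. RNA of 3 samples per group was pooled before labelling, per the labels' protocols. That values are log2 follows from their range, 2.28 to 14.4. The platform annotation gives exactly 1 gene for 21789 probes, which were averaged per gene, and several for 1621. The symbols of the 9 measured members matched by Entrez ID in RefSeq, and 1 list symbol was matched through a synonym. Promoter sequences are RefSeq's, build GRCm38.p6, in which no array coordinate is given. Differences in log2 were counted beyond 1.5-fold, with Python 3.11.15 and pandas 2.3.3. The counting was tested on simulated data. With 1 array per group nothing was tested between groups. The number of arrays limits the precision.

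The members and lists were chosen with earlier results of these data known. Named were the members, other pathway genes beyond 1.5-fold in any comparison, up to 4 more per list with the widest range, and the 3 genes most like each of the 3 members of widest range. From the marker lists, examples were named after their values were seen. Alternatives were 2 rescalings, the brightest probe, a floor, 3 filters and 2 other folds.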

Additional observations from a re-analysis of the deposited data

Results flagged for a closer look

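Cyp1b1, which encodes a P450 enzyme able to oxidise arachidonic acid, was at least 1.5-fold lower than the control with palmitic acid and at least 1.5-fold higher with oleic acid, a log2 difference of -1.23 between these fatty acids. Each side is 1 array, and the difference was not tested.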

How the results depend on the processing

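The member counts of 0 beyond 1.5-fold held in all 6 comparisons under both rescalings, the brightest probe, the floor, the 3 filters and a threshold of 2-fold. At 1.2-fold they were 1 for palmitic acid against the control, 1 for palmitic against oleic acid and 2 for palmitic against linoleic acid, since that threshold is lower by construction. Of 54 member differences, centring each array turned the sign of 1 and a repeated quantile normalisation of 2, all under 0.03, and moved no value by more than 0.073. The floor at log2 7.09 moved 6 values by 0.1 or more, all of Alox5 and Hpgd, to 0. The number of pathway genes beyond 1.5-fold in any comparison was 5, and 6 after a repeated quantile normalisation, and that of receptor genes lower with palmitic acid was 3 under each rescaling, the brightest probe, the floor and the filters. Of the 9 nearest genes, 7 were shared when the largest single difference replaced the distance. Among all kept genes beyond 1.5-fold, the share higher with linoleic acid than in the control was 50%, but 22.2% after centring and 18.2% after quantile normalisation, of 8 to 11 genes; the share higher with linoleic than oleic acid was 67.5%, 52.2% and 50.4%. No paired analysis was possible because each group is 1 array.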
